A study of Homo sapiens with 12 samples.

Results

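The genes described here were 9 of the 60099 genes in the expression table, chosen by symbol: 6 members of the PARP family that have been linked to the interferon response (PARP9, PARP10, PARP11, PARP12, PARP14 and ZC3HAV1), the ubiquitin ligase DTX3L, and PARP1 and PARP2 as family members outside that response. All 9 passed the filter on low counts. The samples were head and neck squamous cell carcinoma (HNSCC) cell lines, which the study names as Cal27 and HN30, exposed to interferon α (IFNα) for 24 h, and total RNA depleted of ribosomal RNA was sequenced. Each of the 6 groups had 2 samples: untreated Control A and Control D, Low dose B and Low dose E at 20 ng/ml, and High dose C and High dose F at 200 ng/ml. No allele or transgene is named for any group, and a cultured line holds no other cells of a tumor. The labels give the letters but not which line each letter is. The letters were read as 2 line sets, A-C and D-F. Correlations between samples over 13034 genes were 0.947 to 0.981 within these sets and 0.749 to 0.785 between them. Comparisons averaged over both sets do not depend on which letters share a line. Nothing in the labels says whether the 2 samples of a group came from separate cultures, so p-values measure only the spread between these samples. Total counts ranged from 10517448 to 16056734, and each of the 4 controls was deeper than each of the 4 samples at 200 ng/ml.

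PARP enzymes transfer ADP-ribose from NAD onto proteins and nucleic acids. PARP1 and PARP2 build long chains at broken DNA, whereas most of the interferon-linked members add a single unit or, like PARP9 and ZC3HAV1, have little or no activity of their own. PARP9 works in a complex with DTX3L, and ZC3HAV1 (ZAP) binds viral RNA rich in CpG and directs it to decay. Type I interferon acts through transcription factors that bind the interferon-stimulated response element (ISRE) in promoters.

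Promoter windows of 250 bases before to 50 bases after the annotated start (RefSeq, GRCh38.p14) were found for 8 of the 9 genes, with PARP10 as the gene without an entry. They were searched on both strands for the ISRE core, GAAANNGAAA or TTTCNNTTTC, which stands in 1255 of all 35116 such windows (3.57%), and for the GAS letters TTCNNNGAA, which stand in 2689 (7.66%). The 4 windows with an ISRE core are shown because they belong to 4 of the 5 genes called higher below, PARP10 being the fifth. The core is in capitals.
PARP9, chr3:122564251-122564550, minus strand: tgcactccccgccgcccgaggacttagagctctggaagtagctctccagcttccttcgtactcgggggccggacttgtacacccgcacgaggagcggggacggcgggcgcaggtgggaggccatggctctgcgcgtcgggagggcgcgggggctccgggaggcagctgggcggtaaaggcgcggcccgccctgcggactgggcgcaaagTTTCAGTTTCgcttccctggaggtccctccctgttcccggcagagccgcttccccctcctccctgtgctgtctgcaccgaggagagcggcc
DTX3L, chr3:122564088-122564387, plus strand: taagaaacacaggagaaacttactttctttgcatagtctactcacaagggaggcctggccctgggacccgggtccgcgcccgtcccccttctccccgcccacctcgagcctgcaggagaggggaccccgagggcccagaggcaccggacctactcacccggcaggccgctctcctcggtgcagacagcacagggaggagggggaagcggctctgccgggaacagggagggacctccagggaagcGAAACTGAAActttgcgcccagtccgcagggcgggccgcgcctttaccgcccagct
PARP14, chr3:122680589-122680888, plus strand: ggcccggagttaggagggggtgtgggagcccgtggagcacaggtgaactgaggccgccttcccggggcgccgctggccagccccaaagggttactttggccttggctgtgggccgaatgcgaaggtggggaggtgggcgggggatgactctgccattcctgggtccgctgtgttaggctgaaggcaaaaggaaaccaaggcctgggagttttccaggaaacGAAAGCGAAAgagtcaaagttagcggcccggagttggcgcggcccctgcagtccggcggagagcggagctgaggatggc
PARP12, chr7:140062902-140063201, minus strand: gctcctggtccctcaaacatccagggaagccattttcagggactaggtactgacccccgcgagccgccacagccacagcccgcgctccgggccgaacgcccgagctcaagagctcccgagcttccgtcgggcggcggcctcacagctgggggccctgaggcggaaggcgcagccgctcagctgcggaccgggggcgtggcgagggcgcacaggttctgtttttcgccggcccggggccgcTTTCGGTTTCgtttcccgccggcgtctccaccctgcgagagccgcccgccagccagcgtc
The PARP9 and DTX3L windows face away from each other and share 137 bases, and the capitals in both are the same 10 bases, chr3:122564332-122564341, read from opposite strands. This core begins at position -6 from the DTX3L start and at -41 from the PARP9 start. In the PARP14 window the core begins at -29, with GAS letters shortly before it at -40, and in the PARP12 window it begins at -10. A further PARP9 window in the table, chr3:122564735-122565034, held neither set of letters. The windows of ZC3HAV1, PARP11, PARP1 and PARP2 held no ISRE core, while those of ZC3HAV1 and PARP2 held GAS letters at -104 and -154. A match of letters is a description and not a shown binding site.

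At 200 ng/ml, 5 of the 9 genes rose (edgeR quasi-likelihood test, called at 2-fold or more and an adjusted p of 0.05 or less), namely PARP9, PARP14, DTX3L, PARP10 and PARP12, and none fell (1, PARP1, was lower at an unadjusted p under 0.05, and DESeq2 called none lower), against 2.14% of the 19944 genes tested called in either direction and 1.58% called higher. The same 5 rose at 20 ng/ml, where 0.963% of all genes were called higher. The median log2 fold change of the 9 genes was 1.71 at 200 ng/ml and 1.44 at 20 ng/ml, against -0.01 over all genes tested at both doses. The 2 comparisons share their control samples. In bulk RNA a larger share of responding cells and more RNA per cell cannot be told apart. By the adjusted p alone, 8 of the 9 genes passed at 200 ng/ml and 7 at 20 ng/ml, where 9.55% and 3.93% of all genes did. The 8 included PARP1, which was lower by less than 2-fold (adjusted p = 0.0266, edgeR). Levels below are in TPM (transcript abundance scaled to depth and length), while fold changes come from counts, so a fold read from TPM can differ from the fitted one.

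PARP14, the largest of the macrodomain PARPs (chr3:122680618-122730840), was the family member with the smallest adjusted p. In line set A-C its level was 61.9 and 60.5 TPM in the controls, 222 and 219.6 TPM at 20 ng/ml, and 295 and 278 TPM at 200 ng/ml. In D-F the levels were 50.4 and 48.7, then 357 and 322, then 389.7 and 379 TPM. No 2 of the 6 groups overlapped, and the order was D, A, B, C, E, F, so that the set that was lower without IFNα was the higher one with it. The log2 fold change was 2.58 ± 0.05 (SE, adjusted p = 8.05e-10, edgeR) at 200 ng/ml and 2.29 ± 0.05 (adjusted p = 2.12e-09) at 20 ng/ml.

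PARP9 (chr3:122527924-122564577), whose macrodomains bind ADP-ribose, started from the lowest control level of the 3 chromosome 3 members in D-F. It stood at 53.7 and 55.0 TPM in Control A, 198 and 191 in Low dose B, and 222 and 287 in High dose C. Control D held 21.2 and 22.0 TPM, Low dose E 187 and 198, and High dose F 203 and 187. All 8 treated samples were above all 4 controls, and groups E, B and F overlapped. The log2 fold change was 2.58 ± 0.07 at 200 ng/ml (adjusted p = 9.30e-09, edgeR) and 2.26 ± 0.07 at 20 ng/ml.

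DTX3L (chr3:122564238-122575203), the E3 ligase partner of PARP9, followed it less steeply. Levels were 58.7 and 51.7 TPM in Control A, 127 and 135 in Low dose B, 149 and 182 in High dose C, 37.9 and 33.6 in Control D, 148 and 147 in Low dose E, and 178 and 171 in High dose F. Treated and control samples again did not overlap, and only the groups at 200 ng/ml, C and F, overlapped each other. The log2 fold change was 1.90 ± 0.07 at 200 ng/ml (adjusted p = 8.47e-08, edgeR) and 1.60 ± 0.07 at 20 ng/ml.

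PARP12 (chr7:140023744-140063721), a zinc-finger PARP that acts against several RNA viruses, had 76.2 and 71.7 TPM in Control A, 142 and 155 in Low dose B, and 162 and 183 in High dose C. The corresponding levels in D-F were 39.5 and 40.7, then 183 and 164, then 220.3 and 202 TPM. The ranges of C and E overlapped and the other neighbouring groups stood apart. The log2 fold change was 1.71 ± 0.06 at 200 ng/ml (adjusted p = 1.34e-07, edgeR) and 1.47 ± 0.06 at 20 ng/ml.

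PARP10 (chr8:143977153-144012772), a mono-ADP-ribosyltransferase, was the only one of the 5 with a higher TPM in Control D than in Control A. Levels were 15.7 and 18.5 TPM in Control A, 44.3 and 51.1 in Low dose B, and 50.7 and 36.1 in High dose C. They were 29.1 and 32.2 TPM in Control D, 126 and 107 in Low dose E, and 111 and 124 in High dose F. The 2 doses overlapped within each set, and the treated groups of D-F lay above those of A-C. The log2 fold change was 1.82 ± 0.11 at 200 ng/ml (adjusted p = 7.19e-06, edgeR) and 1.44 ± 0.11 at 20 ng/ml. PARP10 overlaps GRINA on the other strand over 3358 bases. GRINA had 579.5 counts per sample on average, and whether counting used the strand is not given in the sources used here.

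**Figure D1:**
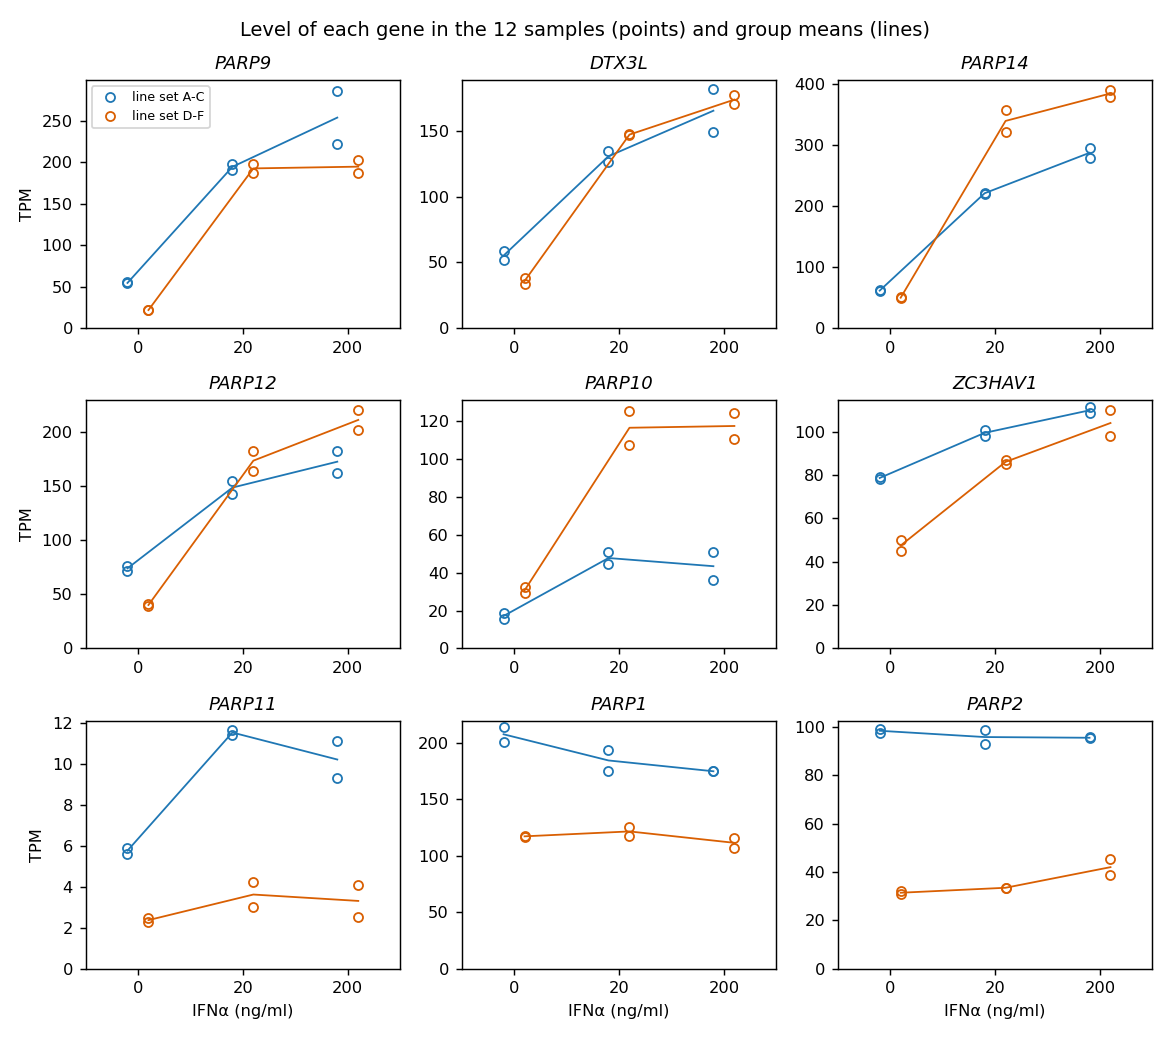
TPM (vertical axes, each starting at 0) of the 9 genes against the IFNα dose in ng/ml, with 1 open circle per sample, blue for A-C and orange for D-F, and lines through the means of 2 samples. The 5 genes called higher step up at 20 ng/ml in both line sets, while PARP1 and PARP2 differ mainly between the sets, at 107 to 126 TPM in D-F against 175 to 214 TPM in A-C for PARP1.

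By the folds fitted on counts, ZC3HAV1 and PARP11 moved less than 2-fold and were not called, while some of their steps in TPM were larger. ZC3HAV1 (chr7:139043520-139109719) had 78.0 and 79.3 TPM in Control A, 98.2 and 101 in Low dose B, 109 and 111 in High dose C, 44.8 and 50.2 in Control D, 85.1 and 87.1 in Low dose E, and 109.9 and 98.2 in High dose F. Within each set no treated sample overlapped the controls. Its log2 fold change of 0.79 ± 0.06 at 200 ng/ml had an adjusted p of 5.57e-05 in edgeR, and that of 0.58 ± 0.06 at 20 ng/ml one of 6.28e-04. PARP11 (chr12:3791047-3873448), a mono-ADP-ribosyltransferase, was the lowest of the 9 genes, at 5.92 and 5.63 TPM in Control A, 9.31 to 11.7 TPM in the 4 treated samples of A-C, 2.28 and 2.48 in Control D, and 2.54 to 4.26 in the 4 treated samples of D-F. Only 72 to 308 counts stood behind each of these values. Its log2 fold change was 0.52 ± 0.14 at 200 ng/ml (adjusted p = 0.0436, edgeR) and 0.71 ± 0.14 at 20 ng/ml (adjusted p = 0.0191).

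PARP1 and PARP2, the DNA-damage members, were not called at either dose. PARP1 (chr1:226360691-226408079) had 201 and 214 TPM in Control A, 175 and 193 in Low dose B and 175 in both samples of High dose C. In D-F it had 118 and 117, then 126 and 117, then 115 and 107 TPM. The groups at 200 ng/ml were the lowest of their sets without overlap, with a log2 difference of -0.24 ± 0.06 (adjusted p = 0.0266, edgeR), and the value at 20 ng/ml was -0.14 ± 0.06 (adjusted p = 0.248). PARP2 (chr14:20343582-20357905) had 92.7 to 99.2 TPM in all 6 samples of A-C, and in D-F 30.8 and 32.1, then 33.4 and 33.5, then 45.3 and 38.7 TPM. Its log2 fold changes were 0.17 ± 0.08 (adjusted p = 0.220, edgeR) and 0.00 ± 0.08 (adjusted p = 1.000).

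Between the 2 doses, none of the 9 genes was called by edgeR or by DESeq2, where edgeR called 0.0451% of all genes. By the adjusted p alone none of the 9 passed either, where 0.135% of all genes did. An unadjusted p under 0.05 was found for 6 of the 9, and the share of all genes at that limit was not counted. For the 5 responding genes the log2 difference between 200 and 20 ng/ml, fitted on counts, ranged from 0.24 ± 0.06 for PARP12 to 0.39 ± 0.11 for PARP10. The TPM of PARP10 did not show this difference. Its means were 47.7 in Low dose B and 43.4 in High dose C, and 116.5 in Low dose E and 117.5 in High dose F. The other responding genes had a higher mean TPM at 200 ng/ml in both sets, PARP9 only slightly in D-F (192.7 and 194.8). The smallest adjusted p was 0.0535 (edgeR), for PARP14 at 0.28 ± 0.04. The 7 genes other than PARP1 and PARP11 had a positive difference.

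The line sets were then compared in their change. At 200 ng/ml in A-C the same 5 genes were called higher, as they were in D-F, where 1.41% and 1.67% of all genes were. At 20 ng/ml 4 of them were called in A-C (0.632% of all genes called higher), where PARP12 had 0.88 ± 0.09 on the log2 scale, and all 5 in D-F (1.2% of all genes). PARP12 differed most: at 200 ng/ml its log2 fold change was 1.04 ± 0.09 in A-C, against 2.37 ± 0.09 for D-F. Between the sets this differed by 1.33 ± 0.12 on the log2 scale (adjusted p = 0.00241, edgeR), and PARP12 was the only 1 of the 9 genes called, against 0.998% of all genes. By the adjusted p alone, which 1.88% of all genes passed, PARP14 (2.20 ± 0.06 in A-C and 2.96 ± 0.07 in D-F, adjusted p of the difference 0.00445) and DTX3L (1.59 ± 0.09 and 2.20 ± 0.10, adjusted p = 0.0493) also changed more in D-F. The DTX3L difference was not past the threshold in 15 of 18 recomputations with other settings or with a sample left out. The differences for PARP10 (0.97 ± 0.22, adjusted p = 0.0614) and PARP9 (0.50 ± 0.13, adjusted p = 0.0855) did not pass. With High dose C replicate 1 left out, PARP10 also was called, at 1.22 (adjusted p = 0.0194).
At 20 ng/ml, PARP12 was again the only gene of the 9 called, with a difference of 1.18 ± 0.12 (adjusted p = 0.00498, edgeR), against 0.231% of all genes. PARP14 (0.94 ± 0.09, adjusted p = 0.00261) and PARP9 (0.80 ± 0.13, adjusted p = 0.035) passed by the adjusted p alone, which 0.371% of all genes did, and the PARP9 difference was past it in 6 of 18 recomputations. The comparisons at both doses share the controls.

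**Figure D2:**
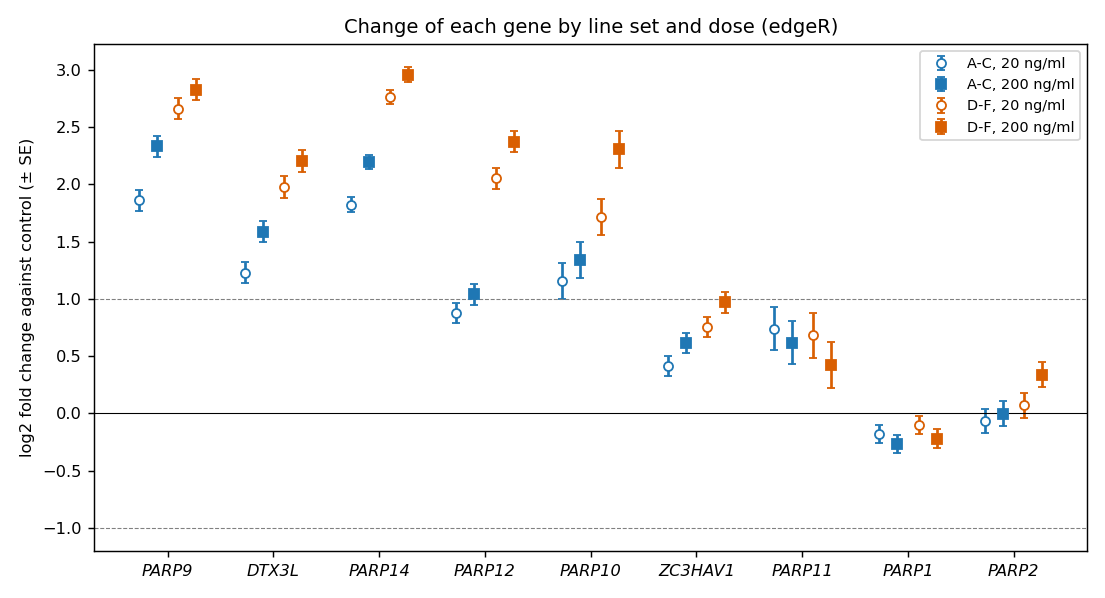
Log2 fold change against control from edgeR (vertical axis, bars are ± SE) for the 9 genes, in A-C (blue) and D-F (orange) at 20 ng/ml (open circles) and 200 ng/ml (squares), with dashed lines at 2-fold. For PARP12 the values at 200 ng/ml are 1.04 and 2.37, and for the 5 responding genes every orange point is above the blue point of the same dose.

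Without IFNα, 8 of the 9 genes differed between Control D and Control A by the adjusted p, where 46.4% of all genes did, and all 8 were lower in D. Of these, 3 were at least 2-fold lower and were called, where 11% of all genes were called lower: PARP2 (-1.90 ± 0.11 on the log2 scale), PARP11 (-1.47 ± 0.20) and PARP12 (-1.05 ± 0.09). PARP9 at -0.99 ± 0.09 and PARP1 at -0.98 ± 0.08 lay just under the 2-fold limit, and an upper-quartile scaling placed both just past it, as did leaving out Control D replicate 1 (-1.02 and -1.03). PARP10 was the exception, at 0.32 ± 0.16 (adjusted p = 0.128, edgeR).

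The make-up of the family RNA was described over 17 genes, the 8 PARP members named above and 9 others. In the controls PARP1 was the highest of the 17 in all 4 samples, with 21.0% to 23.4% of the summed TPM. PARP14 was the highest in 7 of the 8 treated samples and PARP9 in the other, High dose C replicate 2. The 6 interferon-linked PARPs together held 31.6% and 31.8% of the family TPM in Control A and 57.6% in both samples of High dose C, and 34.9% and 35.4% in Control D and 69.8% and 70.2% in High dose F. The share of PARP1 and PARP2 together went from 32.5% and 34.1% in Control A to 18.3% and 17.2% in High dose C, and from 27.6% and 26.8% in Control D to 10.8% and 10.3% in High dose F. Shares of 1 total move against each other, and the summed TPM of the 17 genes was 914 to 922 in Control A against 1471 and 1573 in High dose C, and 537 and 554 in Control D against 1416 and 1484 in High dose F.

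**Figure D3:**
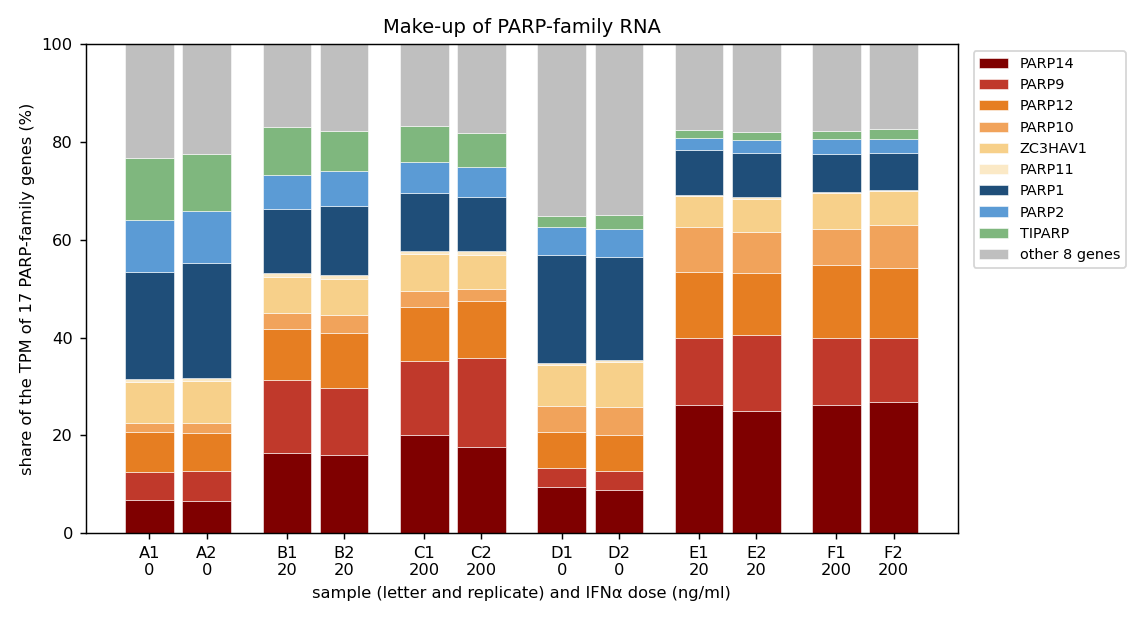
Share of the summed TPM of 17 PARP-family genes (vertical axis, percent) in each of the 12 samples, labelled by letter, replicate and dose in ng/ml, with TIPARP in green and the 8 remaining genes joined in grey. The interferon-linked PARPs (reds and yellows) take 31.6% to 35.4% in the controls and 52.9% to 70.2% in treated samples.

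None of the 8 other PARP genes tested was called at 200 ng/ml by edgeR or DESeq2, where edgeR called 2.14% of all genes. Of the 8, 5 had an unadjusted p under 0.05, and the share of all genes at that limit was not counted. By the adjusted p alone 3 of the 8 passed, PARP3, PARP8 and TIPARP (0.46 ± 0.08, adjusted p = 0.00629, edgeR), where 9.55% of all genes did. The median log2 fold change of the 8 was 0.15. The largest were PARP3 (0.94 ± 0.20, adjusted p = 0.016, edgeR) and PARP8 (0.75 ± 0.09, adjusted p = 7.44e-04), and the smallest PARP16 (-0.51 ± 0.29) and PARP6 (-0.38 ± 0.70). PARP6 stood at 29.4 to 49.95 TPM in A-C and at 0.230 TPM or less in D-F. PARP15 had a mean of 0.333 counts per sample and was not tested.

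Genes that work with the 9 were counted from lists at 200 ng/ml over both line sets, and where none was called DESeq2 called none either. Of all genes tested, 2.14% were called in this comparison and 9.55% passed by the adjusted p alone. The share of all genes with an unadjusted p under 0.05 was not counted. None of 12 genes for ADP-ribose removal and PARP cofactors was called (median 0.06, 2 with an unadjusted p under 0.05). ADPRH (0.95 ± 0.42) and ADPRHL2 (0.60 ± 0.13), both hydrolases, were highest, and CHFR and ADPRHL1 lowest. Only ADPRHL2 passed by the adjusted p alone (adjusted p = 0.0187, edgeR). ADPRH stood at 0.342 to 1.73 TPM (adjusted p = 0.208, edgeR), and CHFR at 0.193 TPM or less in D-F. None of the 3 other deltex ligases tested was called (median -0.11, 0 with an unadjusted p under 0.05), with DTX3 at 0.10 ± 0.15, DTX4 at -0.11 ± 0.27 and DTX2 at -0.13 ± 0.10. Of the genes for NAD supply and use, 11 were tested and none was called (median 0.06, 3 with an unadjusted p under 0.05, of which 2 were lower). NAMPT, the rate-limiting enzyme of NAD salvage, had 0.40 ± 0.05 (adjusted p = 0.00145, edgeR). NADSYN1 went the other way, at -0.36 ± 0.07 (adjusted p = 0.0141, edgeR), and NNMT and SARM1 had the lowest values. QPRT had the highest fitted value of this list, but it was at 0 TPM in Control A and Low dose B and at most 0.118 TPM in High dose C. In D-F it stood at 4.94 to 7.98 TPM and changed by 0.27 ± 0.42 on the log2 scale (adjusted p = 0.824, edgeR). None of the 12 cofactors of ZC3HAV1 was called over both sets (median 0.18), although 6 had an unadjusted p under 0.05 and 5 passed by the adjusted p alone. The highest were TRIM25, a ubiquitin ligase that assists ZC3HAV1, at 0.90 ± 0.07 (adjusted p = 6.41e-05) and N4BP1, an RNA nuclease, at 0.86 ± 0.06, and the lowest DHX30 and EXOSC7 at -0.04 ± 0.09 and 0.02 ± 0.11. Of all genes, 1.67% were called higher at 200 ng/ml within D-F alone and 1.41% within A-C. Within D-F alone 3 of the 12 were called higher at 200 ng/ml, TRIM25 (1.02 ± 0.10, adjusted p = 3.30e-04, edgeR), N4BP1 (1.08 ± 0.08, adjusted p = 3.70e-05) and DCP2 (1.36 ± 0.24, adjusted p = 0.0106), and none within A-C. The difference between the sets was not past the threshold for any of these 3 (adjusted p = 0.413, 0.0922 and 0.0736, edgeR). For DCP2, a subunit of the mRNA decapping enzyme, the TPM of Control D (15.4 and 26.7) and High dose F (23.1 and 25.9) overlapped.

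The labelled tissue was checked on markers. All 8 squamous markers reached 1 TPM, with a summed level of 860 to 2575 TPM in the controls and 1086 to 2852 TPM at 200 ng/ml. Of 5 leukocyte markers 1 reached 1 TPM, CD3E and NKG7 were at 0 in all 12 samples, and their sum was at most 2.33 TPM. The 5 markers of fibroblasts and endothelium summed to 4.33 to 15.2 TPM. In the squamous list 2 of the 8 genes, KRT6A and KRT14, were called higher at 200 ng/ml by edgeR and 1 by DESeq2. Of all genes tested, edgeR called 1.58% higher in this comparison. KRT6A (1.21 ± 0.11) stood at 168 to 178 TPM in Control A and 236 to 473 in High dose C, and at 47.5 to 51.1 in Control D and 149 to 181 in High dose F. KRT14 was not called in A-C, where it stood at 41.9 to 49.2 TPM (0.14 ± 0.14, adjusted p = 0.614, edgeR). Its call rested on D-F, where it was at 0 TPM in Control D and Low dose E and at 0.176 and 0.254 TPM in High dose F, and where it was not called (adjusted p = 0.0644). The part of KRT6A in the values above was not tested.

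PARP9, DTX3L and PARP14 lie in 1 stretch of chromosome 3. The gene bodies of PARP9 and DTX3L overlap by 340 bases on opposite strands, and the start of PARP14 is 116380 bases from that of DTX3L. The 12 genes that start within 200 kb of DTX3L included these 3, of which all were called, 5 others that were tested, of which none was called, and 4 with too few counts. At 200 ng/ml 2.14% of all genes tested were called, so that none called among 5 says little about these neighbours. KPNA1, the nearest tested neighbour on the other side, had a log2 fold change of -0.14 ± 0.15 at a mean of 1323 counts. PARP15, which lies between DTX3L and PARP14, had almost no counts.

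**Figure D4:**
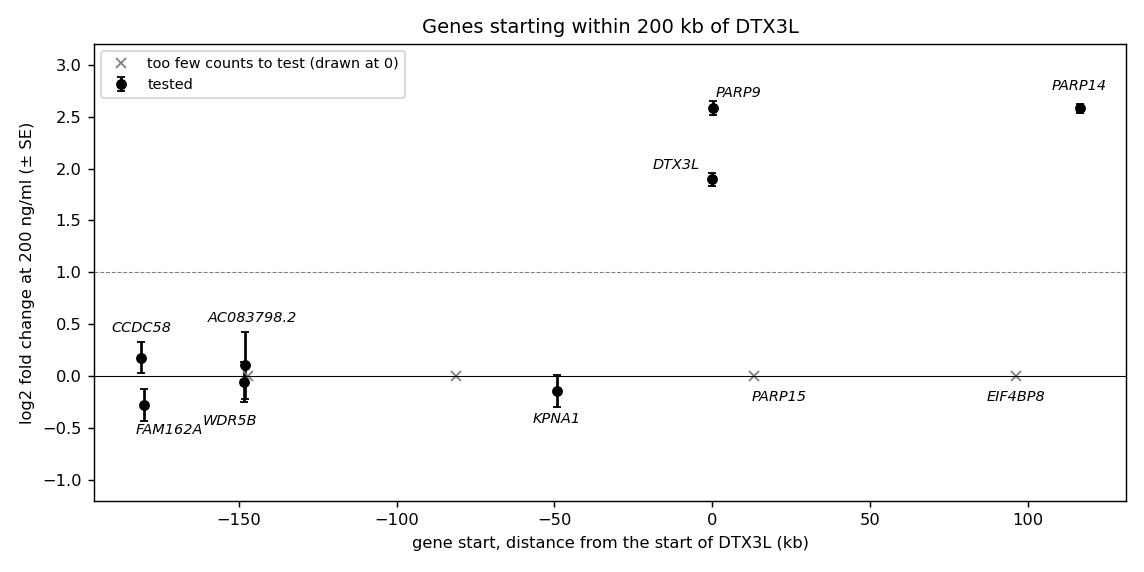
Log2 fold change at 200 ng/ml (vertical axis, bars are ± SE) of genes that start within 200 kb of DTX3L, by distance of their start in kb from that of DTX3L, with crosses for genes that had too few counts to test. PARP9, DTX3L and PARP14 stand at 2.58, 1.90 and 2.58, and the 5 other tested genes between -0.27 and 0.18.

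PARP9 and DTX3L, whose windows share the core printed above, did not move in a fixed ratio. The TPM of PARP9 divided by that of DTX3L was 0.916 and 1.07 in Control A and 0.559 and 0.654 in Control D. It was 1.56 and 1.42 in Low dose B, 1.27 and 1.35 in Low dose E, 1.48 and 1.58 in High dose C, and 1.14 and 1.10 in High dose F. Every treated sample was above every control. At 200 ng/ml the log2 ratio was higher by 0.76, against a pooled SD of 0.11 between replicates (exact two-sided permutation of dose within line sets, p = 0.0556, the smallest that 36 arrangements allow). The same ratio from counts was 0.608 and 0.665 in Control A, 0.525 and 0.555 in Control D, 1.07 and 1.06 in High dose C, and 0.848 and 0.816 in High dose F, which was higher by 0.68 on the log2 scale (same exact permutation, p = 0.0556). This ratio was chosen after the values were seen, and reads from the overlapping ends could be given to either gene if strand was not used in counting.

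**Figure D5:**
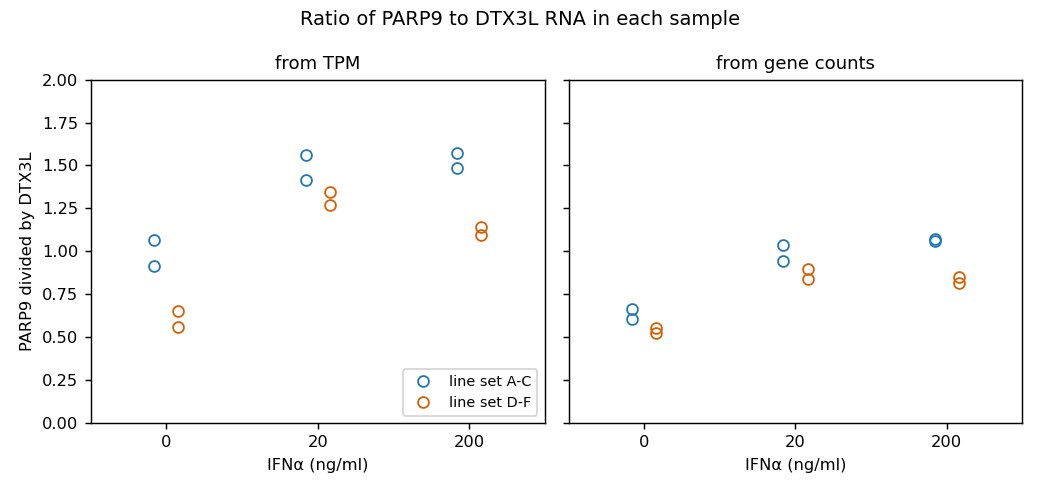
PARP9 divided by DTX3L in each of the 12 samples against the IFNα dose in ng/ml, from TPM (left) and from gene counts (right), blue for A-C and orange for D-F. The ratio from TPM is 0.559 to 1.07 in the controls and 1.10 to 1.58 in the treated samples.

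The transcript table listed 83 transcripts of the 9 genes, of which 60 were tested. At 200 ng/ml 10 of them were called higher and none lower (2 lower at an unadjusted p under 0.05, none lower by DESeq2), against 0.343% of the 75876 transcripts tested called higher. Leaving out any 1 of the 12 samples lowered this count to 3 to 6. In PARP9 the coding PARP9-202 (2.54 ± 0.10, adjusted p = 6.8e-05, edgeR), PARP9-207 and the retained-intron PARP9-206 were called. In DTX3L it was DTX3L-201 (1.84 ± 0.07), which codes 740 amino acids and carries nearly all of the gene. In PARP14 PARP14-203 and PARP14-205 were called, and in PARP12 4 transcripts, none of these 6 being annotated as coding. Of the 4, PARP12-207 (1.52 ± 0.11) had the smallest adjusted p and PARP12-211 (2.15 ± 0.34) the largest change. Transcripts with a retained intron held 72.8% to 86.6% of the TPM of PARP12 in the 12 samples, and coding ones 2.87% to 10.9%, so most of the PARP12 TPM given above was assigned to transcripts that are not annotated as coding.
The division between transcripts was not stable for PARP9 or PARP14. The coding PARP9-204 held 0% of the PARP9 TPM in Control A replicate 1, 70.5% in replicate 2, 0% in both samples of Control D, and 48.0% to 67.9% in the treated samples. Beside that, the retained-intron PARP9-206 held 27.5% and 22.5% in Control D, against 2.73% to 8.06% in the other 10 samples. In PARP14, PARP14-201, annotated for nonsense-mediated decay and with a mean of 5619 counts per sample, held 61.9% in Control A replicate 1 and 0% in replicate 2. The biological coefficient of variation that edgeR estimated was 0.837 over transcripts and 0.196 over genes.

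ZC3HAV1 makes long proteins with a PARP-like domain and a short one without it. The transcript with the longest protein, ZC3HAV1-203 (1024 codons), held 6.72% and 18.2% of the TPM in Control A, 9.33% and 15.2% in Control D, 7.75% and 10.7% in High dose C, and 15.9% and 13.6% in High dose F. The difference at 200 ng/ml was -0.38 percentage points (exact two-sided permutation, p = 0.944, with 0.0556 as the smallest p possible). ZC3HAV1-201 (902 codons) was the major form, and the 2 together held 72.0% and 75.6% in Control A against 82.0% and 84.6% in High dose C, and 73.9% and 82.6% in Control D against 71.2% and 77.4% in High dose F. The groups did not overlap in A-C, where the share was higher at 200 ng/ml, while in D-F they overlapped and its mean was lower. Over both sets the difference was 2.76 points (exact permutation, p = 0.5). The short coding form ZC3HAV1-204 (699 codons) had a log2 fold change of 0.33 ± 0.22. Set A-C gave -0.33 ± 0.31 (adjusted p = 0.827, edgeR), whereas D-F gave 0.99 ± 0.31 (adjusted p = 0.596). ZC3HAV1-201 had one of 0.77 ± 0.08, and the difference between the 2 forms was not tested.

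Likeness of pattern was measured as Pearson's r of log2 (CPM + 1) over the 12 samples, among 13033 genes, and is given as a description, since all genes share the same libraries, doses and line sets. The genes most like PARP14 were IFIT1 (0.997), IFI44 (0.997) and OAS1 (0.997). PARP9 was most like OAS2 (0.996) and then DTX3L (0.994), and DTX3L most like OAS2 (0.995) and then PARP9. PARP12 was most like OASL (0.990) and PARP10 most like NT5C3A (0.990). The highest for ZC3HAV1 was 0.984 and for PARP11 0.988, the latter with RN7SL3. PARP1 was most like BOLA2B (0.994) and PARP2 most like CD74 (0.996).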

How the data were processed

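The 9 genes, the gene lists and the tests were chosen with earlier results of these data known. Per the labels, libraries were rRNA-depleted and strand-specific, and the submitters' processing notes name Trimmomatic 0.36, HISAT2 2.1.0, StringTie 1.3.3b and GRCh38.p10. Whether counting used the strand is not given in the sources used here. The authors deposited estimated counts (whole numbers), TPM and FPKM values per gene and per transcript. The deposited FPKM values were not used. Genes or transcripts passing filterByExpr were tested on counts in 1 fit of 6 groups with edgeR 4.0.16 (R 4.3.3, TMM, quasi-likelihood, Benjamini-Hochberg over all features). A gene was called at a fold of at least 2 and an adjusted p of at most 0.05. The SE was taken as the size of the log2 fold change over the root of its F value. In simulated data with 200 changed genes, 98 of 100 at a log2 size of 2 and 100 of 100 at 3 were recovered. Log2 sizes under 2 were not simulated, so smaller changes, such as those of ZC3HAV1 and PARP11, are not covered. In simulated transcripts 16 of 100 were recovered at a log2 size of 3 and 55 of 100 at 6, so that uncalled transcripts say little. Genes named beyond the 9 are at most the 2 highest and 2 lowest of each list, the best matches in pattern (of the 3 per gene) and the genes starting within 200 kb of DTX3L. GRINA, TIPARP, NADSYN1, DCP2, CD3E and NKG7 were named outside this rule, after their values were seen. The result of 1 further list is not reported here. Promoters come from RefSeq and transcript types from GENCODE 29, whose positions equal those of all 83 transcripts. Alternatives covered RLE and upper-quartile scaling, no filter, DESeq2 1.42.0, a replicate block, fewer groups, other call rules, and each of the 12 samples left out. Replicates of a group differed beyond counting noise (chi-square per degree of freedom 10.6 to 14.8).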

Additional observations from a re-analysis of the deposited data

Results flagged for a closer look

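The 6 results below were singled out because the change with IFNα differed between the line sets by the test of that difference. All 6 were larger in D-F than in A-C. At 200 ng/ml these were PARP12 (1.33 on the log2 scale), PARP14 (0.76) and DTX3L (0.61). At 20 ng/ml these were PARP12 (1.18), PARP14 (0.94) and PARP9 (0.80). The PARP12 difference at 200 ng/ml lay between 1.26 and 1.42 over 18 recomputations and that of PARP14 between 0.73 and 0.79, and both had an adjusted p of at most 0.05 in all 18 at both doses. DTX3L kept this in 3 of 18 and PARP9 in 6 of 18, with log2 values of 0.51 to 0.73 and 0.74 to 0.84. In Control D these 4 genes stood lower than in Control A. In the treated groups the TPM of PARP14 and PARP12 stood higher in D-F at both doses, without overlap. DTX3L stood higher in D-F at 20 ng/ml, while its groups at 200 ng/ml overlapped. PARP9 overlapped at 20 ng/ml and was lower in D-F at 200 ng/ml.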

How the results depend on the processing

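The 5 genes called at 200 and at 20 ng/ml stayed 5 in number with each of the 12 samples left out (5 to 5 at both doses), and the count without a fold minimum was 8 at 200 ng/ml. Over all genes, the counts with samples left out were 334 to 497 at 200 ng/ml, 199 to 245 at 20 ng/ml, 3 to 41 between doses, 74 to 339 and 28 to 61 for the differences between line sets at 200 and 20 ng/ml, and 4675 to 5478 for untreated D against A. With the unadjusted p and 2-fold the counts were 846, 649, 378, 1253 and 809 for the first 5 of these comparisons, and 23 member transcripts. With no fold minimum they were 1905, 784, 27, 375, 74 and 9261. DESeq2 gave 43 genes between doses, 323 and 165 for the line set differences, and 17 member transcripts. Without the filter there were 17 genes between doses and 4 member transcripts. With only the groups of the comparison there were 100 genes for the line set difference at 200 ng/ml and 4 member transcripts. A replicate block gave 0 genes between doses, 69 and 30 for the line set differences, and 3 member transcripts. Same-numbered samples did not deviate together (correlations -0.043 to 0.056 in 6 pairs of groups). Whether same-numbered samples were cultured or processed together is not in the labels, and these correlations cannot settle it. Among the 9 genes the line set differences were called for 1 to 2 at 200 ng/ml and 1 to 1 at 20 ng/ml with samples left out, and for 3 at each dose without a fold minimum. Between doses 0 to 0 were called. Untreated D against A gave 3 to 5 with samples left out, 5 with upper-quartile factors and 8 without a fold minimum, and PARP12 fell just short of 2-fold with the block (-0.99). With samples left out, 3 to 6 member transcripts were called, the ZC3HAV1-203 share differed by -3.25 to 2.49 points, and the log2 PARP9 to DTX3L ratio by 0.70 to 0.82.
Of 1080 recomputed log2 values of the 9 genes, 14 changed sign, none of them called. These were PARP2 at 20 ng/ml (-0.028 with upper-quartile factors, -0.0077 without the filter, and -0.018 to 0.028 with samples left out) and, only with samples left out, the line set differences of PARP1 (-0.036 to 0.13 at 200 ng/ml, -0.0026 to 0.16 at 20 ng/ml) and PARP11 (-0.29 to 0.11 at 20 ng/ml).
Groups of 2 samples limit every comparison, and transcript shares rest on an assignment that differed widely between replicates for PARP14 and PARP9.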
